A study of Mus musculus with 6 samples.

Results

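Endothelial cells line the blood and lymphatic vessels, and their identity is carried by a shared set of junction proteins, receptors, surface glycoproteins, clotting regulators and transcription factors of the ETS and SOXF families. In the mouse uterus this vascular bed remodels through early pregnancy under ovarian steroids, and vessels around an implanting embryo become leaky and then proliferate. The set described here holds 40 genes that were named by symbol for this role, 36 of blood endothelium and 4 of lymphatic endothelium (Lyve1, Prox1, Pdpn and Mmrn1), out of 18193 genes named on the arrays. All 40 were measured. Each gene was read at its brightest probe set, taking only probe sets annotated to no other gene and averaging brightness over the 6 arrays.

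RNA came from whole uteri at 3.5 dpc (days post coitum) and was hybridised to Affymetrix mouse expression arrays, with 3 arrays from Arid1a d/d mice and 3 from Arid1a f/f mice. Both genotypes carry 2 floxed Arid1a alleles. In Arid1a d/d mice a Cre recombinase knocked into 1 Pgr allele deletes them in cells that express the progesterone receptor, whereas Arid1a f/f mice have no Cre, so that the genotypes also differ at the Pgr locus. Females of both genotypes had been mated with C57BL/6 males, and the sources used here do not state the age of the array mice. Whether the arrays of a genotype stem from different mice is not stated in the labels, and the p-values reflect variation among these samples only, which may be technical.

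Arid1a itself had intensities of 51.9, 51.9 and 58.1 on the Arid1a d/d arrays, against 83.6, 86.8 and 104 on the Arid1a f/f arrays (adjusted p = 0.0120). Intensities are the normalized values of the deposited table on a linear scale, given for replicates 1, 2 and 3 in that order. They were compared as log2 values with limma, a linear model that shares the spread between arrays over all probe sets, and a gene was called at a Benjamini-Hochberg adjusted p under 0.05. Fold changes are on the log2 scale, Arid1a d/d minus Arid1a f/f, with the standard error as SE. The table holds no detection calls. Intensities near the median of the whole table, 3.12, may be background, where a fold change is uncertain in size. The defining blood endothelial markers Cdh5, Pecam1 and Vwf lay above that median on all 6 arrays, and Prox1, which defines lymphatic endothelium, below it. Whether the endothelial cells of these uteri had lost Arid1a was not tested.

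Most blood endothelial genes were lower in Arid1a d/d uteri. Of 36 blood members, 24 were lower and 0 higher in limma, and 12 were not called. Over all genes 4.06% were called lower and 3.37% higher. At an unadjusted p under 0.05, 33 of the 36 were lower and 0 higher, and 0 were higher under any alternative run. The share of all genes at that unadjusted p in limma was not counted. The unadjusted limma counts here and in the lists below therefore have no share to be compared with. On 32 of the 36 blood members every Arid1a d/d array lay below every Arid1a f/f array, and on 1 every Arid1a d/d array lay above. Such separation occurred in 16.0% of all genes downward and 13.4% upward. The median fold change of the blood members was -0.85, beside -0.018 over all genes, and single members lay between -1.50 and 0.25. In a whole-tissue sample fewer endothelial cells and less of these RNAs in each cell cannot be told apart. Which cells of the uterus made the RNA of each member, called or not, was not tested. The 24 lower calls became 15 without Arid1a f/f replicate 3, and 13 of the 24 genes were called in all 6 fits with an array removed. The 4 lymphatic members had no common direction, with 1 lower (Pdpn), 0 higher and 3 not called. At an unadjusted p Lyve1 was higher.

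**Figure D1:**
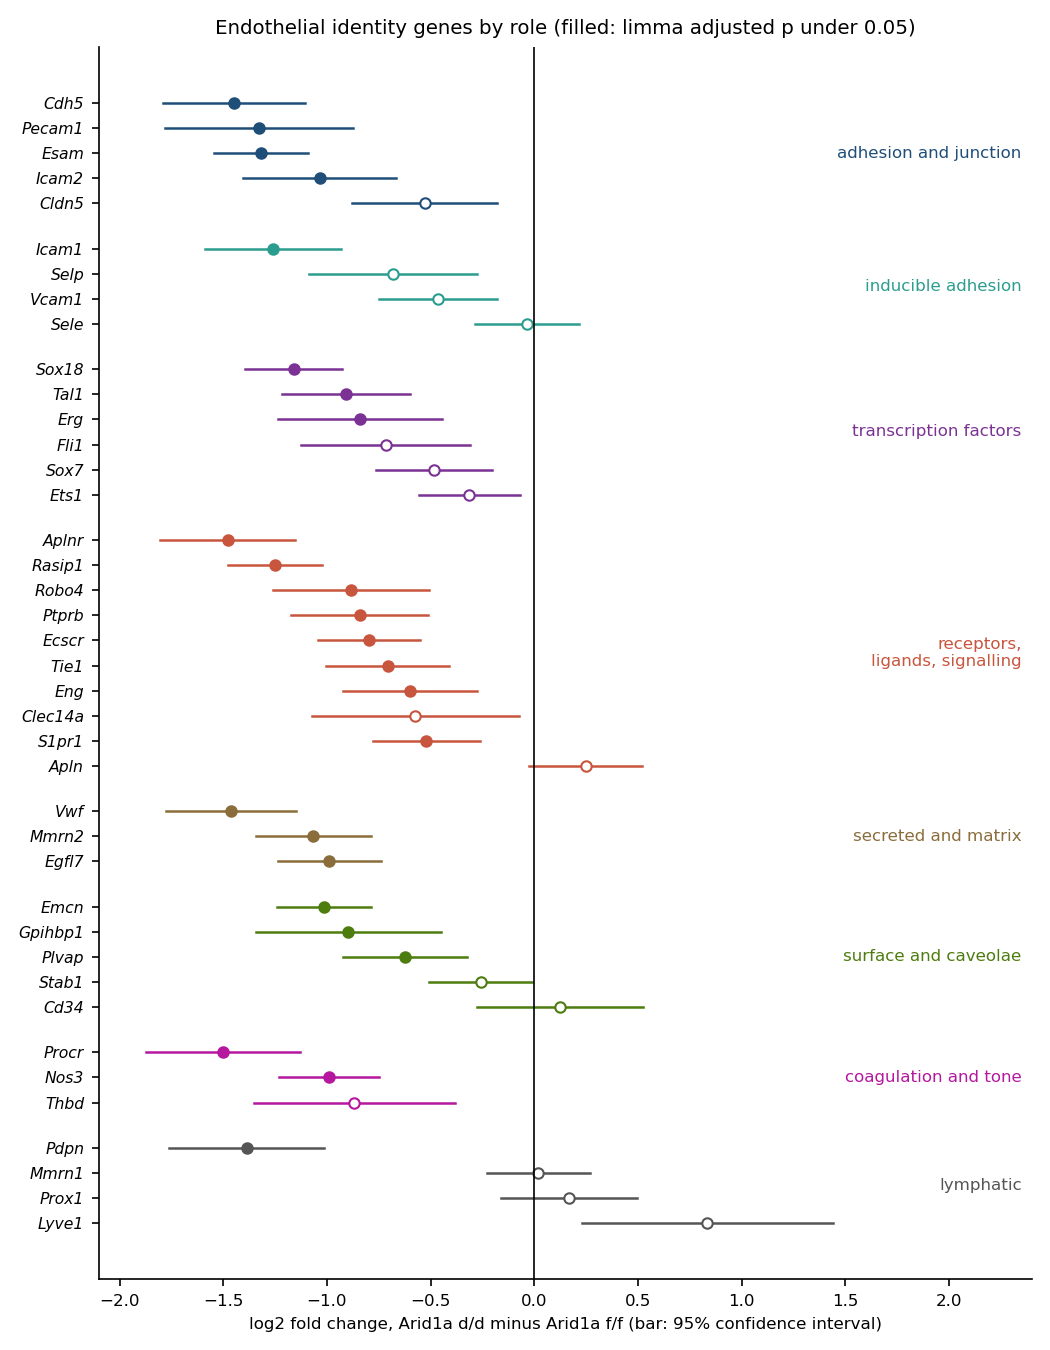
Log2 fold change of each of the 40 genes (horizontal axis, Arid1a d/d minus Arid1a f/f, n = 3 arrays each) in blocks by role, with 95% confidence intervals; points are filled where the adjusted p from limma was under 0.05. The 24 called blood members lie left of 0, and Apln, Cd34, Mmrn1, Prox1 and Lyve1 lie right of it without a call.

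Promoter sequence was available for 20 of the 40 genes in the RefSeq promoter table of GRCm38.p6, which spans 250 bases before to 50 after a start site. ETS factors such as ERG and FLI1 bind a core of GGAA with a preferred flank, so the promoters were searched on both strands for AGGAAG or CGGAAG. The upstream windows below are those of the blood members that stayed called on removal of any single array and have an entry in the table, with Cd34 as a gene that was not called. Each covers the 150 bases before the first start site listed, 5′ to 3′ on the strand of the gene, and capitals mark the matches, CTTCCT and CTTCCG being the same motifs on the other strand.
Procr, chr2:155751067-155751216 (+): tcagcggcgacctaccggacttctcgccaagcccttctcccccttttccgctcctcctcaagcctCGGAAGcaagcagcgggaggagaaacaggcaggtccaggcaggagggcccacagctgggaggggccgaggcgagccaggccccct
Rasip1, chr7:45627387-45627536 (+): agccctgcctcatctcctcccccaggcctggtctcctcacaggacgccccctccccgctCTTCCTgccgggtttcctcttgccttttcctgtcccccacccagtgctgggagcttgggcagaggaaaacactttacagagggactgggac
Egfl7, chr2:26580933-26581082 (+): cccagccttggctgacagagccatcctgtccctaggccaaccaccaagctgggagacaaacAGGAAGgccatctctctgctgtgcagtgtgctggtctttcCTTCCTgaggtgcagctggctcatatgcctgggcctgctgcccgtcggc
Emcn, chr3:137340928-137341077 (+): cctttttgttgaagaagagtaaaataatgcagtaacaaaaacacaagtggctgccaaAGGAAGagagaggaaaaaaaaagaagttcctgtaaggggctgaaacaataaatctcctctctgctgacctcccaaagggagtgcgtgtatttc
Icam1, chr9:21015790-21015939 (+): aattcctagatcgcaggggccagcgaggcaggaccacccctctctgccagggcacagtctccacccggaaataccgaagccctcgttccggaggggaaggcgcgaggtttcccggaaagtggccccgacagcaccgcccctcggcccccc
Cd34, chr1:194938671-194938820 (+): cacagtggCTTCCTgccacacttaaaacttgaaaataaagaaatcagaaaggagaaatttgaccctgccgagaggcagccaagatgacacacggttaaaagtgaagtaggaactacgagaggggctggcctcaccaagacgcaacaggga

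In these windows the match began 85 bases before the start site in Procr, 91 in Rasip1, 93 in Emcn, 89 and 49 in Egfl7 and 142 in Cd34. Icam1 had no match to the searched strings, although its window holds the shorter core GGAA. Taking the first listed promoter of each gene, 12 of the 20 members (60.0%) held either letter string, as did 46.4% of the 27025 genes in the table. The share was 7 of 11 (63.6%) for members called lower and 5 of 9 (55.6%) for members not called. The SOX string ACAATG, searched in the same way, was in 1 of 20 member promoters (5.0%) and in 12.8% of all. Both strings are short and common, and a match is a description of the sequence and no evidence of binding.

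Of the 5 constitutive junction and adhesion genes of blood endothelium 4 were lower, with a median fold change of -1.32 over the 5. Cdh5, which encodes VE-cadherin, the cadherin of endothelial junctions, had intensities of 32.9, 22.3 and 31.3 on the Arid1a d/d arrays, against 76.4, 74.5 and 82.0 on the Arid1a f/f arrays (probe set 1433956_at). Pecam1, encoding the adhesion molecule CD31, had 9.79, 6.83 and 12.6 on the Arid1a d/d arrays, against 24.5, 21.5 and 25.2 on the Arid1a f/f arrays (1421287_a_at). The immunoglobulin-like adhesion gene Esam had 62.7, 55.7 and 63.5 in Arid1a d/d mice, against 148, 147 and 158 in Arid1a f/f mice (1460356_at). On each of these 3 genes the genotypes were wide apart, and Arid1a d/d replicate 2 was the lowest array. The fold change was -1.45 for Cdh5 (SE 0.15, adjusted p = 0.00321), -1.33 for Pecam1 (SE 0.20, adjusted p = 0.0113) and -1.32 for Esam (SE 0.10, adjusted p = 0.00100). A second Cdh5 probe set (1422047_at) had means below the median of the table in both genotypes. Its fold change was -0.205 and not called (adjusted p = 0.319). With both averaged Cdh5 was called at -0.83 (adjusted p = 0.00466). Icam2, an adhesion molecule made by resting endothelium, had 14.4, 10.4 and 15.5 in Arid1a d/d mice, against 30.4, 24.2 and 27.1 in Arid1a f/f mice (1448862_at). Its fold change was -1.03 (SE 0.16, adjusted p = 0.0127), and the arrays again did not overlap. Without Arid1a f/f replicate 3 both Pecam1, at -1.28 (adjusted p = 0.0508), and Icam2, at -1.03 (adjusted p = 0.0528), lost their calls. Cldn5, the claudin of endothelial tight junctions, was not called. It had 37.9, 30.4 and 35.2 in Arid1a d/d mice, against 39.9, 58.4 and 52.3 in Arid1a f/f mice (fold change -0.53, SE 0.16, adjusted p = 0.0974). The genotypes did not overlap here either, but Arid1a f/f replicate 1 came close to Arid1a d/d replicate 1, and without that Arid1a f/f array Cldn5 passed at -0.69.

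Adhesion molecules that endothelium makes in response to inflammatory signals differed among themselves. Icam1, encoding a ligand of leukocyte integrins, had intensities of 7.76, 6.96 and 8.75 in Arid1a d/d mice, against 15.3, 20.8 and 20.3 in Arid1a f/f mice (1424067_at). Its arrays did not overlap, with a fold change of -1.26 (SE 0.15, adjusted p = 0.00421). Selp, encoding the P-selectin of endothelial and platelet granules, had 6.55, 7.95 and 5.68 in Arid1a d/d mice, against 9.17, 9.68 and 13.7 in Arid1a f/f mice (fold change -0.68, SE 0.18, adjusted p = 0.0701). Vcam1, another ligand of leukocyte integrins, had a fold change of -0.46 (SE 0.13, adjusted p = 0.0754), with intensities from 4.38 to 4.98 in Arid1a d/d mice and 5.68 to 7.46 in Arid1a f/f mice. Neither gene was called, although the arrays of the genotypes were apart. Sele, encoding E-selectin, lay between 1.90 and 2.22 in Arid1a d/d mice and between 1.90 and 2.24 in Arid1a f/f mice, below the median of the table, so that no difference was detectable there.

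All 6 endothelial transcription factor genes of the set had negative fold changes, and 3 were called. Sox18, a SOXF factor of vessel and lymphatic development, had intensities of 24.0, 25.1 and 27.7 in Arid1a d/d mice, against 54.0, 60.9 and 56.7 in Arid1a f/f mice (1449135_at). The replicates lay close together within each genotype, and the fold change was -1.16 (SE 0.10, adjusted p = 0.00183). Tal1, a basic helix-loop-helix factor of blood and endothelial precursors, had 4.75, 4.27 and 3.93 in Arid1a d/d mice, against 6.83, 8.27 and 9.34 in Arid1a f/f mice (fold change -0.91, SE 0.14, adjusted p = 0.0111). Erg, an ETS factor that maintains the endothelial programme, had 8.10, 4.86 and 6.45 in Arid1a d/d mice, against 10.5, 11.5 and 12.1 in Arid1a f/f mice (fold change -0.84, SE 0.17, adjusted p = 0.0315). The genotypes did not overlap on either gene, but Erg was called in only 1 of the 6 fits with an array removed, the fit lacking Arid1a d/d replicate 1. Tal1 was not called when Arid1a f/f replicate 2 was removed, and with 8 added to its intensities, which are near the median of the table in Arid1a d/d mice, it was called at -0.39. A second Erg probe set (1425370_a_at) lay below the median of the table in both genotypes, with a fold change of 0.13, and with both averaged Erg had -0.35 and was not called (adjusted p = 0.126).

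The remaining 3 factors were not called. Fli1, the ETS factor most related to Erg, had intensities of 12.4, 8.10 and 11.5 in Arid1a d/d mice, against 14.9, 20.5 and 16.9 in Arid1a f/f mice (fold change -0.72, SE 0.18, adjusted p = 0.0612). A second, dimmer Fli1 probe set (1422024_at) had means of 4.34 in Arid1a d/d mice and 4.42 in Arid1a f/f mice. Its fold change was -0.031 (adjusted p = 0.937), and with both averaged Fli1 had -0.37. Sox7, another SOXF gene, had a fold change of -0.48 (SE 0.12, adjusted p = 0.0627), and -0.089 on a probe set below the median of the table. Ets1, which leukocytes and stroma also express, had -0.31 on its brightest probe set (SE 0.11, adjusted p = 0.153) and -0.39 on another bright one. Its dim probe sets, with means below the median of the table, had 0.012 and -0.026. At the brightest probe set of each of these 3 genes every Arid1a d/d array was below every Arid1a f/f array.

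Among receptors, ligands and signalling genes 8 of 10 were lower. Aplnr, the G protein-coupled receptor for apelin, had intensities of 144.6, 178.3 and 199.9 on the Arid1a d/d arrays, against 427, 493 and 532 on the Arid1a f/f arrays (1438651_a_at). A second probe set (1423037_at) was called too, at -1.29 beside -1.48 (SE 0.14, adjusted p = 0.00257) on the first. Apln, encoding its peptide ligand, did not follow: it had 9.49, 12.5 and 10.1 in Arid1a d/d mice, against 8.86, 9.12 and 8.85 in Arid1a f/f mice. It was the only blood member on which every Arid1a d/d array lay above every Arid1a f/f array, but it was not called (fold change 0.25, SE 0.12, adjusted p = 0.320, 95% confidence interval -0.024 to 0.52). Rasip1, an effector of RAS-like GTPases needed for vessel lumens, had 3.27, 3.56 and 3.54 in Arid1a d/d mice, against 8.54, 8.56 and 7.58 in Arid1a f/f mice (1428016_a_at). Its arrays were tight within each genotype, with a fold change of -1.25 (SE 0.10, adjusted p = 0.00139). The Arid1a d/d values are close to the median of the table, so the size of that fall is uncertain, and with 8 added to each intensity before log2 it was -0.50 and still called.

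Robo4, an endothelial Roundabout receptor that stabilises vessels, had intensities of 6.99, 7.89 and 7.89 in Arid1a d/d mice, against 12.2, 18.4 and 12.2 in Arid1a f/f mice (fold change -0.88, SE 0.17, adjusted p = 0.0224). Ptprb, encoding the phosphatase VE-PTP that acts on the angiopoietin receptor and VE-cadherin, had 25.4, 17.7 and 19.0 in Arid1a d/d mice, against 34.4, 36.4 and 39.4 in Arid1a f/f mice (fold change -0.84, SE 0.15, adjusted p = 0.0170). Tie1, the receptor that modulates angiopoietin signalling, had 4.18, 4.63 and 4.47 in Arid1a d/d mice, against 8.66, 6.83 and 6.36 in Arid1a f/f mice (fold change -0.71, SE 0.13, adjusted p = 0.0212). A second Ptprb probe set (1427486_at) had -0.57 and was not called (adjusted p = 0.161), and with its probe sets averaged Ptprb was not called either, at -0.46 (adjusted p = 0.0859). The Arid1a d/d values of Tie1 were near the median of the table, and with 8 added before log2 its fold change was -0.30 and not called (adjusted p = 0.0650). On these 3 genes the genotypes did not overlap, and single Arid1a f/f arrays, replicate 2 for Robo4 and replicate 1 for Tie1, stood above their group. With an array removed, Robo4 stayed called in 2 of 6 fits, and Ptprb and Tie1 in 3.

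Ecscr, an endothelial surface gene that modulates migration, had intensities of 33.1, 30.1 and 35.3 in Arid1a d/d mice, against 53.8, 54.9 and 62.2 in Arid1a f/f mice (fold change -0.80, SE 0.11, adjusted p = 0.00786). It stayed called when any single array was removed. Eng, encoding the TGF-beta co-receptor endoglin, had 40.6, 33.8 and 46.8 in Arid1a d/d mice, against 66.0, 63.5 and 53.5 in Arid1a f/f mice (fold change -0.60, SE 0.14, adjusted p = 0.0497). S1pr1, the sphingosine-1-phosphate receptor that tightens vessel barriers, had 6.55, 5.80 and 6.35 in Arid1a d/d mice, against 9.94, 8.98 and 7.99 in Arid1a f/f mice (fold change -0.52, SE 0.11, adjusted p = 0.0372). The arrays did not overlap on these 3 genes. The calls of Eng and S1pr1 were fragile, since with an array removed Eng stayed called in 1 of 6 fits and S1pr1 in 0. The other Eng probe set (1432176_a_at) had -0.89 and was called (adjusted p = 0.0181). Clec14a, a C-type lectin gene of sprouting endothelium, had 11.2, 8.37 and 7.34 in Arid1a d/d mice, against 9.49, 15.0 and 15.9 in Arid1a f/f mice. These arrays overlapped, through Arid1a f/f replicate 1, and the fold change of -0.57 was not called (SE 0.22, adjusted p = 0.203).

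**Figure D2:**
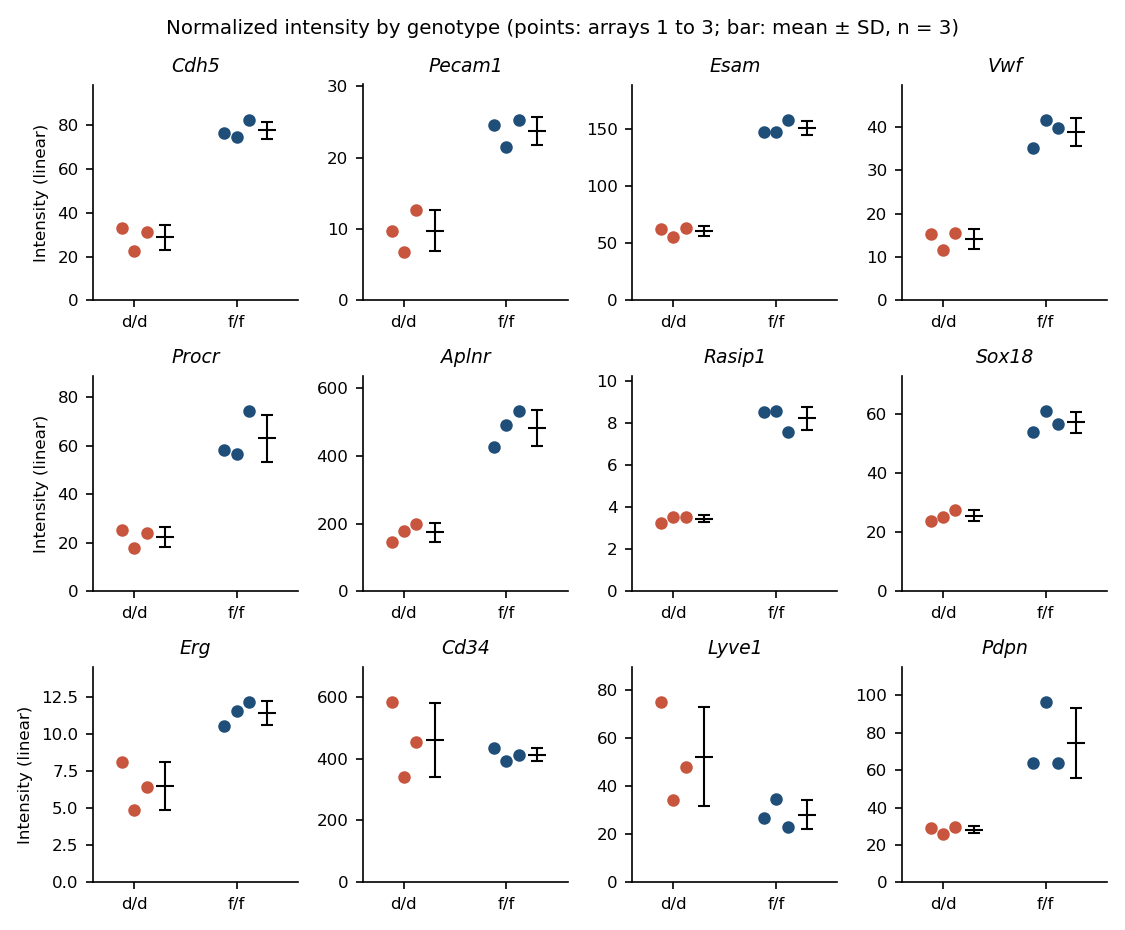
Normalized intensity (vertical axes, linear and starting at 0) of 12 of the genes on each array, with Arid1a d/d left and Arid1a f/f right of each panel; points are arrays 1 to 3 and the bars mean ± SD (n = 3). Cdh5 had 22.3 to 32.9 in Arid1a d/d mice and 74.5 to 82.0 in Arid1a f/f mice, whereas Cd34 and Lyve1 overlapped between genotypes.

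All 3 secreted and matrix genes were lower. Vwf, encoding von Willebrand factor, the clotting protein of endothelial storage granules, had intensities of 15.4, 11.6 and 15.5 in Arid1a d/d mice, against 35.2, 41.5 and 39.7 in Arid1a f/f mice (1435386_at). Egfl7, an endothelial matrix protein gene and host of a microRNA, had 42.1, 35.4 and 43.8 in Arid1a d/d mice, against 79.3, 82.0 and 78.7 in Arid1a f/f mice (1451428_x_at). Mmrn2, encoding an elastin microfibril-type protein that binds CLEC14A, had 39.1, 31.2 and 36.2 in Arid1a d/d mice, against 74.9, 66.9 and 81.0 in Arid1a f/f mice (1456768_a_at). No arrays overlapped, and replicate 2 was again the lowest Arid1a d/d array on each. The fold change was -1.46 for Vwf (SE 0.14, adjusted p = 0.00227), -1.07 for Mmrn2 (SE 0.12, adjusted p = 0.00407) and -0.99 for Egfl7 (SE 0.11, adjusted p = 0.00360). All 4 probe sets of Egfl7 were called, from -0.99 to -0.68, and 3 of the 4 of Mmrn2, from -1.34 to -0.84, while the remaining one had -0.42 and was not. Removing any single array ended no call among these 3 genes.

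Of the 3 genes of blood clotting control and vessel tone 2 were lower. Procr, encoding the endothelial protein C receptor, had intensities of 25.3, 17.7 and 24.1 in Arid1a d/d mice, against 58.5, 56.5 and 74.2 in Arid1a f/f mice (1420664_s_at). Its fold change of -1.50 (SE 0.16, adjusted p = 0.00336) was the lowest of the 40, on the only probe set of the gene. Nos3, encoding endothelial nitric oxide synthase, had 8.42, 7.37 and 7.65 in Arid1a d/d mice, against 17.0, 14.9 and 14.7 in Arid1a f/f mice (fold change -0.99, SE 0.11, adjusted p = 0.00332). The genotypes did not overlap, and both genes stayed called when any single array was removed. Thbd, encoding thrombomodulin, the partner of the protein C receptor in activating protein C, had 55.6, 46.1 and 45.9 in Arid1a d/d mice, against 67.7, 128 and 82.4 in Arid1a f/f mice. The Arid1a f/f arrays were spread widely, with replicate 2 far above the others, and the fold change of -0.87 missed the test (SE 0.21, adjusted p = 0.0566). Without Arid1a f/f replicate 1 it passed at -1.07.

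Surface glycoproteins divided. Emcn, encoding the sialomucin endomucin of veins and capillaries, had intensities of 29.8, 26.0 and 26.9 in Arid1a d/d mice, against 57.4, 56.5 and 53.2 in Arid1a f/f mice (1425582_a_at). The arrays were tight, and the fold change was -1.01 (SE 0.10, adjusted p = 0.00259). Gpihbp1, which carries lipoprotein lipase to the capillary lumen, had 7.44, 13.4 and 11.2 in Arid1a d/d mice, against 19.8, 20.6 and 17.7 in Arid1a f/f mice (fold change -0.90, SE 0.20, adjusted p = 0.0379). Plvap, a protein of fenestrae and caveolar diaphragms, had 40.5, 38.3 and 29.4 in Arid1a d/d mice, against 54.0, 53.9 and 57.4 in Arid1a f/f mice (fold change -0.62, SE 0.13, adjusted p = 0.0338). These genes did not overlap between genotypes, and with an array removed Emcn stayed called in all 6 fits, Gpihbp1 in 2 and Plvap in 1. Stab1, a scavenger receptor of sinusoidal endothelium and macrophages, had a fold change of -0.26 (SE 0.11, adjusted p = 0.251) and was not called.

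Cd34 stood apart from the other surface genes. It encodes a sialomucin of capillary endothelium that is also made by fibroblasts and blood progenitors. Its intensities were 581, 342 and 455 on the Arid1a d/d arrays, against 434, 391 and 411 on the Arid1a f/f arrays (1416072_at). The Arid1a d/d arrays lay on both sides of the Arid1a f/f arrays, and the fold change was 0.12 (SE 0.18, adjusted p = 0.792, 95% confidence interval -0.28 to 0.52). That interval does not reach the median of the blood members, -0.85. Without Arid1a d/d replicate 1 the sign of the difference changed, to -0.063. How much of this RNA came from endothelium was not tested.

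The lymphatic members were described apart. Lyve1, the hyaluronan receptor of lymphatic capillaries, which some tissue macrophages also make, had intensities of 75.0, 34.2 and 48.0 in Arid1a d/d mice, against 27.0, 34.9 and 23.0 in Arid1a f/f mice (1429379_at). The genotypes overlapped through replicate 2 of each, replicate 1 was the highest Arid1a d/d array, and the gene was not called (fold change 0.83, SE 0.27, adjusted p = 0.126, 95% confidence interval 0.23 to 1.44). A second probe set (1453128_at) gave 0.83 too (adjusted p = 0.140). Prox1, encoding the homeobox factor that specifies lymphatic endothelium, was below the median of the table on all 6 arrays, at 2.50, 2.03 and 1.68 in Arid1a d/d mice, against 1.88, 1.86 and 1.72 in Arid1a f/f mice. A change in this defining lymphatic gene was therefore not measurable here. Mmrn1, a multimerin made by lymphatic endothelium and platelets, had 13.0, 12.2 and 10.5 in Arid1a d/d mice, against 11.3, 12.2 and 11.6 in Arid1a f/f mice (fold change 0.019, SE 0.11, adjusted p = 0.958, 95% confidence interval -0.23 to 0.27). Its arrays overlapped fully.

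Pdpn, encoding podoplanin, was the called exception. It had intensities of 28.8, 25.9 and 29.4 in Arid1a d/d mice, against 63.8, 96.1 and 63.7 in Arid1a f/f mice (1419309_at). The genotypes were far apart, Arid1a f/f replicate 2 was above its group, and the fold change was -1.39 (SE 0.17, adjusted p = 0.00468). It stayed called on removal of any array. Podoplanin marks lymphatic endothelium, but fibroblasts and some epithelia make it as well, and which cells of the uterus gave this signal was not tested.

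**Figure D3:**
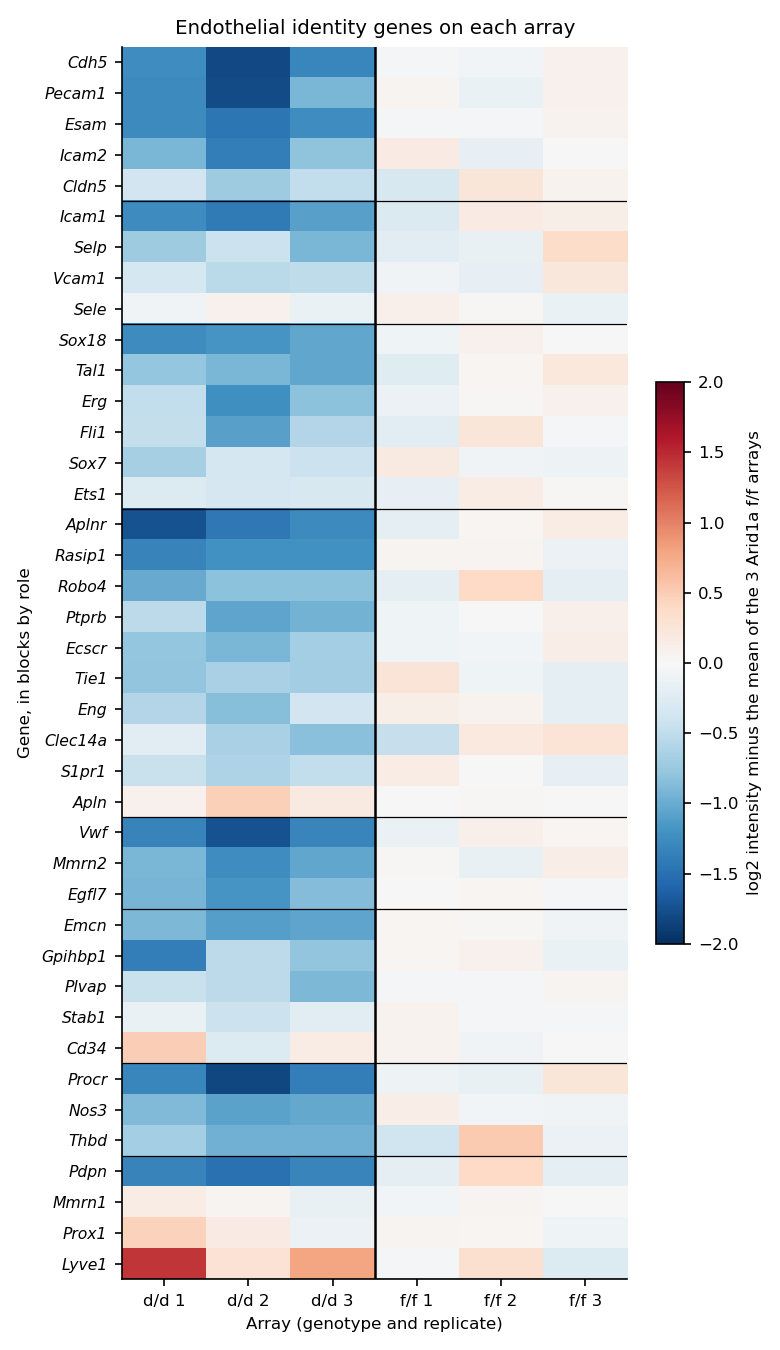
Log2 intensity of each of the 40 genes (rows, in blocks by role) on each array (columns), relative to the mean of that gene on the 3 Arid1a f/f arrays; blue is lower and red higher. The 3 Arid1a d/d columns are blue for most blood members, while Apln and Lyve1 are red on all 3 and Cd34, Mmrn1 and Prox1 are mixed.

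The blood members moved to a similar extent on the 3 Arid1a d/d arrays. Relative to the Arid1a f/f mean of each gene, the median of the 36 was -0.77, -0.94 and -0.86 (replicates 1, 2 and 3), while the Arid1a f/f arrays lay at -0.028, 0.021 and 0.009. Replicate 2 was the lowest Arid1a d/d array for 22 of the 36 genes, replicate 1 for 8 and replicate 3 for 6. Arid1a d/d replicate 2 was also the array highest in epithelial markers, whose median on the same scale was 0.13, 1.08 and 0.43 in Arid1a d/d mice and between -0.020 and 0.053 in Arid1a f/f mice. The summed intensity of the 10 epithelial markers was 1398 to 2581 in Arid1a d/d mice and 1332 to 1415 in Arid1a f/f mice. Without replicate 2 of Arid1a d/d, 19 blood members were lower and 0 higher, with a median of -0.81. The part of epithelial RNA in these values was not tested.

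A wider list of endothelial genes outside the set fell less evenly. Of 48 listed, 46 were measured, and 23 were lower and 0 higher in limma, with a median fold change of -0.56. At an unadjusted p 33 were lower and 2 higher. Lrg1, a secreted glycoprotein gene that modulates TGF-beta signalling in endothelium, had -1.82 (SE 0.16, adjusted p = 0.00176), and the adhesion G protein-coupled receptor genes Adgrf5 and Adgrl4 had -1.21 and -1.16. She, an adaptor gene, had -0.99. Tek, the angiopoietin receptor that works with Tie1, had -1.21 (adjusted p = 0.0231) and Kdr, the main VEGF receptor of endothelium, -0.50 (adjusted p = 0.0484). Efnb2, the ephrin of arterial endothelium, went the other way, at 82.5, 133 and 85.9 in Arid1a d/d mice, against 51.6, 70.4 and 53.3 in Arid1a f/f mice, and was not called (fold change 0.76, adjusted p = 0.0682). The lipid-handling gene Fabp4 had 57.3, 136 and 82.9 in Arid1a d/d mice, against 68.4, 22.2 and 38.5 in Arid1a f/f mice, which overlapped (fold change 1.16, adjusted p = 0.167). Tek, Kdr, Efnb2 and Fabp4 were singled out after their values had been seen. The number of lower genes in this list was 12 when either replicate 2 or 3 of Arid1a f/f was removed, and 15 on removal of Arid1a f/f replicate 1 or of either replicate 2 or 3 of Arid1a d/d.

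**Figure D4:**
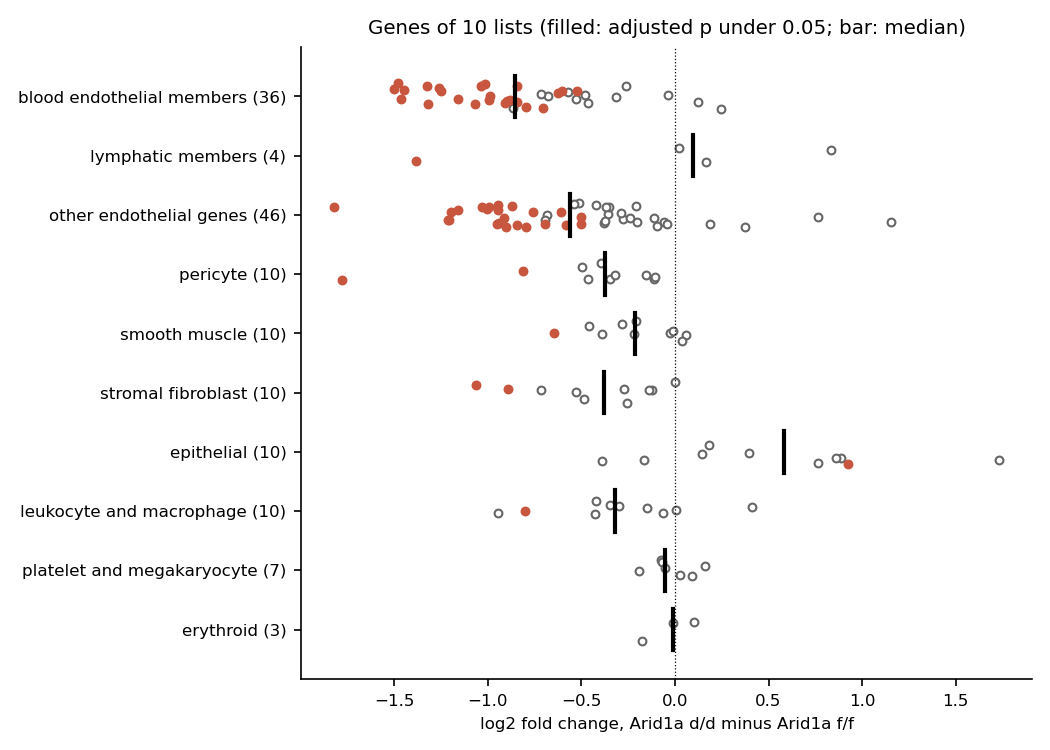
Log2 fold change (horizontal axis, Arid1a d/d minus Arid1a f/f) of each measured gene of 10 lists, with the number measured in brackets; filled points had an adjusted p under 0.05 in limma and a black bar marks each list's median. The median was -0.85 for blood endothelial members, -0.37 for pericyte and 0.58 for epithelial markers.

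Pericytes wrap the endothelium of small vessels, and 2 of 10 pericyte markers were lower and 0 higher, with a median of -0.37. At an unadjusted p 7 were lower and 0 higher. On 6 of the 10 every Arid1a d/d array lay below every Arid1a f/f array, beside 16.0% of all genes, and on 0 above. Rgs5, a regulator of G protein signalling and a common pericyte marker, had intensities of 313, 260 and 324 in Arid1a d/d mice, against 916, 961 and 1207 in Arid1a f/f mice. The arrays were wide apart, with a fold change of -1.78 (SE 0.14, adjusted p = 0.00124). Notch3 was the other lower marker, at -0.81 (adjusted p = 0.00824), while Pdgfrb had -0.50 (adjusted p = 0.0563) and Mcam, which endothelium also makes, -0.47 (adjusted p = 0.0648). The summed intensity of the 10 genes was 704 to 792 in Arid1a d/d mice and 1492 to 1806 in Arid1a f/f mice, and most of that difference lay in Rgs5.

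Among the markers of other cell types smaller shares were called than among the blood members, of which 66.7% were lower. Over all genes 4.06% were lower. Of 10 markers each, 2 stromal fibroblast markers were lower (Dcn at -1.06 and Thy1 at -0.89), 1 smooth muscle marker (Des at -0.64) and 1 leukocyte marker (Ptprc at -0.80), and 0 were higher. Their medians were -0.38, -0.21 and -0.32. Every Arid1a d/d array lay below every Arid1a f/f array on 6, 3 and 4 of them, beside 16.0% of all genes, and above on 0. At an unadjusted p 6, 4 and 5 of them were lower and 0, 0 and 1 higher. Thy1 is also made by some endothelial cells, and Ptprc by all leukocytes. Of 10 epithelial markers 1 was higher (Cdh1 at 0.92) and 0 lower, with a median of 0.58. At an unadjusted p 5 were higher and 0 lower. On 5 of the 10 every Arid1a d/d array lay above every Arid1a f/f array, beside 13.4% of all genes, and on 0 below. The platelet genes, whose cells share Selp, Vwf and Mmrn1 with endothelium, had a median of -0.053 over 7 measured genes, and 3 erythroid genes one of -0.010. None of these 10 passed, at an adjusted or an unadjusted p. The 3 erythroid genes, of 6 listed, had means below the median of the table in both genotypes. Most of the platelet genes lay near or below that median, so a change in most of these genes was not measurable here. The summed intensity of the macrophage and leukocyte markers was 526 to 667 in Arid1a d/d mice and 628 to 933 in Arid1a f/f mice, so the genotypes overlapped in that sum. Whether changes in cell makeup account for the values of the 40 genes was not tested.

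**Figure D5:**
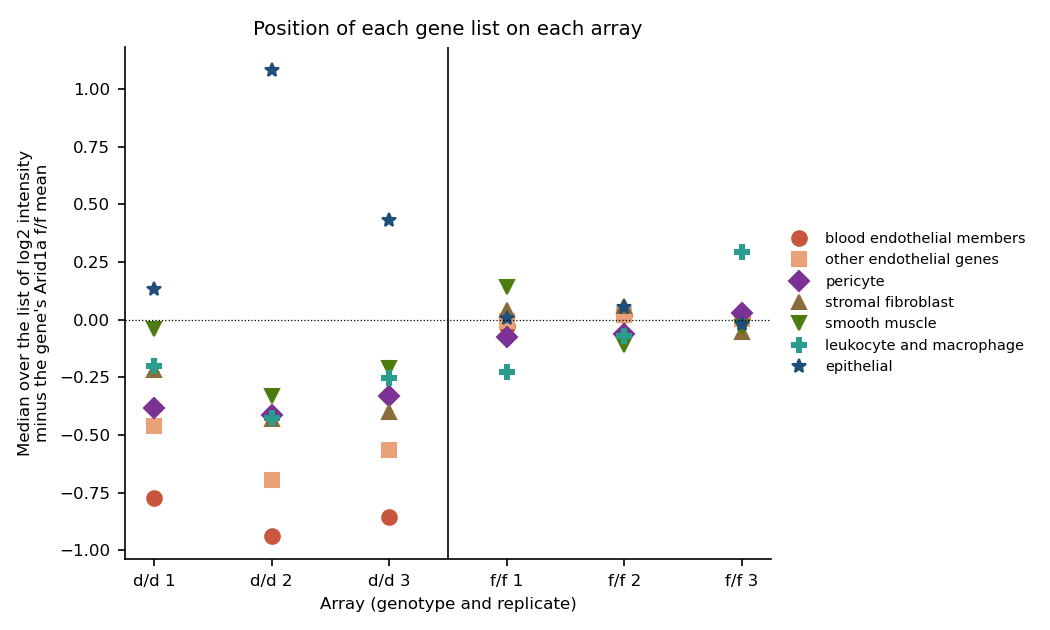
Median over each gene list of the log2 intensity minus the gene's Arid1a f/f mean (vertical axis) on each array (horizontal axis). Blood endothelial members lie at -0.77, -0.94 and -0.86 on the Arid1a d/d arrays, below every other list shown, and epithelial markers reach 1.08 on replicate 2.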

How the data were processed

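Expression was measured in 6 uterine samples, 3 per genotype, on Affymetrix mouse genome arrays. The authors normalized the arrays by RMA (named in the submitters' processing notes, version not given in the sources used here) with global scaling, and the deposited table holds linear intensity values for 45037 probe sets. The scaling target stated in the methods is not visible in those values, which have array medians from 3.05 to 3.17. No detection calls, scan dates or slides were used here, so batches could not be examined. Of the probe sets, 34945 name 1 gene in the platform annotation, 932 name several and 9160 are unnamed here. The number of arrays limits the precision.

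A linear model without covariates was fitted to the log2 values of the 6 arrays in limma 3.58.1 (R 4.3.3), and p-values from eBayes were adjusted by Benjamini-Hochberg across the whole table. The script was tested on simulated data. The labels state no link between same-numbered arrays of the genotypes, and the main fit used none. Each gene was read at its brightest probe set. The members, the other lists (further endothelial, pericyte, smooth muscle, stromal fibroblast, epithelial, leukocyte and macrophage, platelet and erythroid genes) and the tests were chosen with earlier results of these data known. Values on each array were given for called and lymphatic members and for the 4 uncalled blood members with the largest change, and from each other list at most 4 genes with the lowest adjusted p were named. Cldn5, Apln and Cd34 were given in the same detail after their values had been seen. Alternatives covered normalization, filters, probe set choice, the model and each array left out.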

Additional observations from a re-analysis of the deposited data

How the results depend on the processing

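Quantile normalization, median centring and leaving out the dimmest probe sets changed no call among the members measured under them. Without probe sets whose names end in _s_at or _x_at, 22 blood members were lower. Procr, whose only probe set is of that kind, was not measured there, and Eng lost its call (adjusted p = 0.0527). Egfl7 stayed called there, at -0.68 in place of -0.99. The 24 lower blood members became 15 to 21 with 1 array left out, 17 with 8 added to each intensity before log2 and 23 with the replicate number as a block, where Eng alone lost its call. The methods name a t-test for their data in general, and for the arrays they give fold change filters. That t-test, applied here to the arrays, called 31 blood members lower unadjusted and 0 after Benjamini-Hochberg adjustment. After adjustment it also called 0 lymphatic members, 0 other endothelial genes and 0 probe sets lower, and 0 probe sets higher. Of all probe sets, 1057 were lower and 1090 higher in limma, against 3316 and 3386 in the unadjusted t-test and 337 to 878 and 241 to 941 with 1 array left out. Adding 8 moved the median of the blood members to -0.52, that of the other endothelial genes to -0.36, their lower calls to 11 of 46 and the lower probe sets to 687. With the mean of all probe sets of a gene the other endothelial median was -0.44. With 1 array left out it lay between -0.62 and -0.49, with 12 to 17 lower calls. The count of 0 higher other endothelial genes became 1, Efnb2, with the replicate block, with a trended and robust eBayes and in the unadjusted t-test. The sign turned for 3 members that were not called: Mmrn1 had -0.045 when its probe sets were averaged and -0.047 to 0.11 with 1 array left out, Sele -0.10 to 0.018 and Cd34 -0.063 to 0.32. The cause of these changes was not tested. Adding 8 ended 7 calls among the members (Erg, Tie1, Eng, Robo4, S1pr1, Plvap and Gpihbp1). Intensities near the median of the table limit dim members, among them Sele, Prox1, Rasip1, Tie1 and Tal1.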
